A study of Homo sapiens with 24 samples.

Results

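ID3-KO and WT AID-DIvA cells were compared in how each gene changed between the untreated state and the state after mocetinostat and recovery. The quantity is the genotype by treatment interaction: the log2 change of KO cells on treatment minus the log2 change of WT cells. A positive value means that the gene rose more, or fell less, in KO than in WT cells. It does not say which genotype was higher after treatment. In counts of the interaction, higher and lower stand for positive and negative values. The interaction used 12 of the 24 RNA-seq libraries of the series, 3 biological replicates in each of 4 groups: untreated WT, treated WT, untreated KO and treated KO. Treated cells received mocetinostat for 24 h and then drug-free medium for 24 h. AID-DIvA cells are U2OS osteosarcoma cells with an integrated vector for the restriction enzyme AsiSI, which cuts the genome once 4-hydroxytamoxifen moves it into the nucleus. The methods name no 4-hydroxytamoxifen and no mocetinostat dose for these libraries, and the number of knockout clones is not given in the sources used here. The other 12 libraries are WT and ID3-KO U2OS cells, untreated or treated for 24 h, and by the methods they were collected before recovery. Cell line and stage therefore cannot be told apart.

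ID3 is a helix-loop-helix protein without a DNA-binding region. It pairs with the E proteins TCF3, TCF4 and TCF12 and keeps them from binding E-box sequences. Mocetinostat inhibits class I histone deacetylases (HDACs), enzymes that remove acetyl groups from histones and other proteins. An interaction can arise in different ways: KO and WT cells may differ before treatment and meet after it, or they may start alike and part.

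Titles and treatment entries disagree in the AID-DIvA labels, so that a library titled as treated is entered as untreated and the reverse. Groups here follow the titles, which the library names given in the labels match. If the entries were right, every interaction below would have the opposite sign and the untreated and treated differences would trade places. Of the genes whose treatment response was called in both cell lines, 68.8% of 6385 in KO and 69.8% of 5680 in WT changed in the same direction under the titles. Total counts lay between 37878751 and 76906266 per AID-DIvA library, and mitochondrial genes took between 6.48% and 9.47% of them. COL1A1, SPARC, VIM and FN1, which mesenchymal cells express, were at 229 CPM (counts scaled to a common library size) or more in every library. The osteoblast genes SP7, BGLAP and IBSP and the collagen gene COL1A2 stayed below 0.72 CPM in every library. Of the same list, RUNX2 ran from 16.3 to 32.7 CPM and ALPL from 0.585 to 6.74 CPM over the 12 libraries. Summed over the lists of markers, leukocyte genes reached at most 5.73 CPM and endothelial genes at most 4.21 CPM, with the T cell gene CD3E at most at 0.040 CPM. Among the leukocyte genes ITGAM ran from 0.390 to 5.41 CPM and PTPRC reached at most 0.395 CPM. Summed epithelial markers ran from 102 to 106 CPM in untreated WT, 146 to 151 in treated WT, 119 to 131 in untreated KO and 192 to 211 CPM in treated KO cells. Most of this sum was KRT18, at 85.5 to 171 CPM over the 12 libraries. CLDN4 ran from 10.8 to 30.2 CPM and EPCAM from 4.33 to 9.14 CPM, while CDH1 and KRT19 reached at most 1.96 and 0.159 CPM. The part of these markers in the results below was not tested.

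ID3 transcripts were still counted in the KO libraries. ID3 (ENSG00000117318.8, hg19 chr1:23884409-23886285) stood at 46.8, 50.02 and 50.3 CPM in untreated WT and at 99.6, 126 and 122 CPM in treated WT cells. In KO cells it stood at 31.5, 30.5 and 37.5 CPM untreated and at 62.4, 59.1 and 63.9 CPM treated. No KO library overlapped the WT libraries of the same treatment, and ID3 rose on treatment in both genotypes. Its interaction was -0.34 ± 0.12 (SE) on the log2 scale, with an adjusted p of 0.26 in the edgeR quasi-likelihood test. No gene of the list of ID and E proteins (7 genes) or of class I HDACs (4 genes) was called in the interaction by edgeR or DESeq2. At an unadjusted p below 0.05 each list held 1 gene. HDAC1 was called higher in KO cells in both states, by 0.34 untreated and 0.37 treated on the log2 scale. It ran from 150 to 162 CPM over the 6 WT libraries and from 188 to 207 CPM over the 6 KO libraries, without overlap. HDAC2 was also called higher in both states, by 0.30 untreated and 0.20 treated. HDAC3 was called lower in untreated KO cells (-0.18) and HDAC8 was called in neither state. Over all genes tested, 28.4% were called in untreated and 30.2% in treated cells.

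Of 21265 genes tested, 258 (1.21%) had a called interaction, at a Benjamini-Hochberg adjusted p below 0.05. The interaction was positive for 162 genes (0.762% of those tested) and negative for 96 (0.451%). By comparison, 9688 genes (45.6%) responded to treatment in KO cells and 8522 (40.1%) in WT cells. KO and WT differed in 6031 genes (28.4%) untreated and in 6419 (30.2%) treated. Among the 258 genes the median absolute interaction was 0.69 on the log2 scale with a median SE of 0.13, and 66 exceeded 1. Of the 258 genes, 239 averaged at least 1 CPM. Over the 15155 tested genes at that level, the SD of the interaction was 0.23, against 0.54 and 0.52 for the KO and WT responses. Protein-coding genes made up 91.4% of the interaction genes with a known biotype and 72.5% of those tested. The count was sensitive to single libraries: it was 122, 135 and 160 without untreated WT replicate 1, 2 or 3, 146 and 138 without untreated KO replicate 1 or 2, and 149 without treated KO replicate 2. In all, 104 of the 258 genes were called whichever library was left out.

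**Figure D1:**
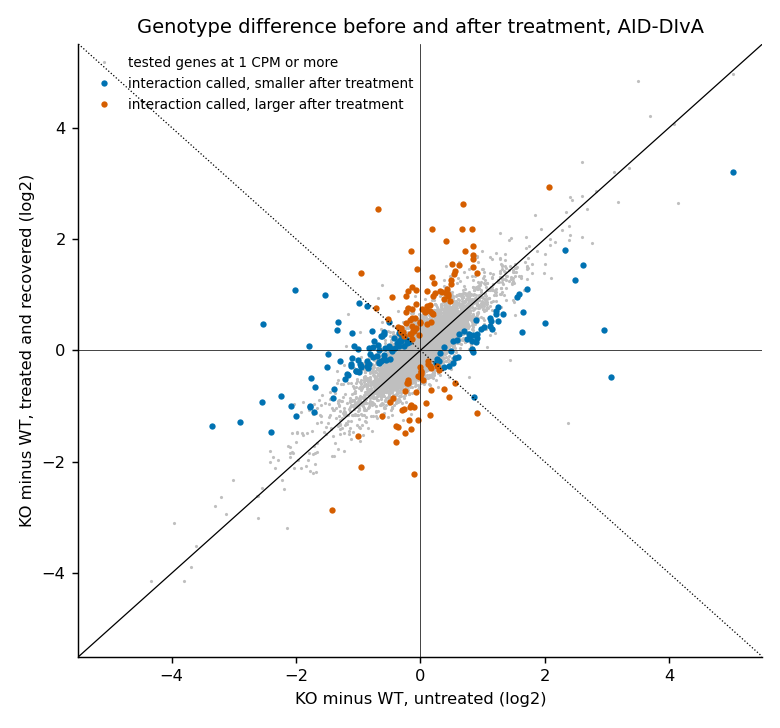
Difference between KO and WT cells in untreated (x axis) and in treated and recovered cells (y axis), log2, for tested genes at 1 CPM or more (grey) and the 258 interaction genes (blue and orange); the solid line marks equal differences and the dotted line differences of equal size and opposite sign. Of the interaction genes, 137 had the smaller difference after treatment (blue) and 121 the larger (orange). The axes end at 5.5, and 7 grey genes lie beyond them.

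Most of the difference between genotypes was carried through treatment. Across the 15155 genes, the KO minus WT difference in untreated cells correlated with that in treated cells, which share no library, at Pearson r 0.86 and Spearman rho 0.74. Genes are not independent replicates. Of 4111 genes called in both states, 4077 kept their sign and 34 changed it, and 33 of the 34 were interaction genes. The last count follows largely from the definition, since differences of opposite sign add up in the interaction.

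The 258 genes split almost evenly by where the difference lay. For 137 genes the difference between KO and WT was larger before treatment, so that treatment brought the genotypes together. For 121 it was larger after treatment, so that they moved apart. By the calls, 59 genes differed only in untreated cells, 67 only in treated cells and 99 in both with the same sign, while 33 changed from one sign to the other. The share with the larger difference in untreated cells, 53.1%, stayed between 48.7% and 56.8% with each library left out in turn. Seen by response, 84 genes rose in both genotypes and 45 fell in both, to different extents. A further 45 responded only in KO and 63 only in WT cells, and 21 moved in opposite directions. Of the genes that differed only in untreated cells, 44 had a positive interaction and 15 a negative one, because more of them started lower in KO cells. Of the interaction genes at 1 CPM or more, 127 had the smaller difference after treatment and 112 the larger. Over all tested genes at that level the counts were 7104 and 8051. A near-even split is therefore not particular to interaction genes. The shares of all tested genes called in each response and each difference are given above.

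Among the genes that treatment brought together or past each other, PPARGC1A had the largest positive interaction of those named. It encodes PGC-1alpha, a coactivator of mitochondrial gene expression (chr4:23756664-23905712). PPARGC1A stood at 2.07, 1.70 and 1.38 CPM in untreated WT and at 1.22, 1.17 and 1.02 CPM in treated WT cells. In KO cells it went from 0.601, 0.638 and 0.510 CPM to 2.09, 2.29 and 2.39 CPM. The genotypes did not overlap in either state, and KO cells moved from below WT to above it. The interaction was 2.53 ± 0.23 (adjusted p = 5.24e-05): PPARGC1A rose by 1.94 in KO cells and fell by 0.58 in WT cells on the log2 scale.

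TRAF1, a signalling adaptor of tumour necrosis factor receptors (chr9:123664671-123691451), crossed in the same direction. It rose from 3.59, 3.73 and 3.83 CPM to 17.0, 15.7 and 15.4 CPM in WT cells, and from 1.30, 1.37 and 1.82 CPM to 27.0, 19.3 and 22.4 CPM in KO cells. Neither state had overlapping genotypes, and the interaction was 1.83 ± 0.18 (adjusted p = 0.000105). COL5A3, a fibrillar collagen chain (chr19:10070237-10121147), stood at 4.44 to 4.51 CPM in untreated WT against 2.40 to 2.60 CPM in untreated KO cells. After treatment it stood at 7.05 to 8.90 CPM in WT and at 12.7 to 16.3 CPM in KO cells (interaction 1.65 ± 0.15, adjusted p = 5.45e-05). TRIB2, a pseudokinase, fell in both genotypes, less so in KO cells, and also changed from below WT to above it (0.87 ± 0.10, adjusted p = 0.00046).

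For other genes the initial difference closed without crossing. MYCL, a MYC family transcription factor, stood at 8.49 to 9.26 CPM in untreated WT and at 4.26 to 4.54 CPM in untreated KO cells. After treatment the ranges overlapped, at 3.21 to 3.82 and 3.36 to 3.62 CPM (interaction 1.02 ± 0.13, adjusted p = 0.000727). TGM2, a transglutaminase that crosslinks proteins (chr20:36756863-36794980), closed from the other side. It went from 117, 112 and 107 CPM to 275, 252 and 241 CPM in WT cells, and from 206, 191 and 208 CPM to 275, 252 and 229 CPM in KO cells. Untreated genotypes were apart and treated ones overlapped, with an interaction of -0.87 ± 0.10 (adjusted p = 0.000378). ADAMTS12, a secreted metalloproteinase, showed the same form at smaller size (-0.51 ± 0.07, adjusted p = 0.00172). Fitted over all 24 libraries its call was lost (adjusted p = 0.183).

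In a further set the gap narrowed but remained. LCP1, the actin-bundling protein L-plastin, stood at 27.2 to 28.8 CPM against 5.22 to 5.47 CPM before treatment and at 94.8 to 116 CPM against 34.9 to 40.8 CPM after it, WT against KO. Its KO minus WT difference shrank from -2.41 to -1.47 (interaction 0.94 ± 0.12, adjusted p = 0.000727). KRT75, a type II keratin, was higher in KO cells in both states, at 12.1 to 12.9 CPM against 1.69 to 2.29 CPM untreated and at 41.5 to 46.1 CPM against 14.6 to 15.9 CPM treated. Its difference shrank from 2.62 to 1.53 (-1.08 ± 0.13, adjusted p = 0.000482). SYP (synaptophysin, of synaptic vesicles) and CX3CL1 (the chemokine fractalkine) narrowed from below WT, with interactions of 0.76 ± 0.12 and 1.07 ± 0.18 (adjusted p = 0.00551 and 0.00576). RUNX2, the transcription factor of osteoblast differentiation, stood at 29.6 to 32.7 CPM in untreated WT and at 16.3 to 18.6 CPM in untreated KO cells. It rose in KO cells to 22.1 to 24.6 CPM and was at 28.8 to 29.8 CPM in treated WT cells (0.53 ± 0.09, adjusted p = 0.00933).

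The 2 smallest interaction p-values belonged to transcripts that do not code for protein. RPLP0P2, a ribosomal protein pseudogene (chr11:61382508-61406921), stood at 12.6, 12.4 and 12.3 CPM in untreated WT and at 4.55, 4.03 and 4.83 CPM in untreated KO cells. After treatment it stood at 57.0 to 60.0 CPM in WT and at 53.4 to 59.6 CPM in KO cells, with overlap (1.41 ± 0.10, adjusted p = 1.66e-06). Its reads may be shared with the parent gene RPLP0, so its level is uncertain. RP11-47I22.3, a long non-coding RNA (chr14:62037258-62125414), stayed at 66.0 to 77.1 CPM in WT cells and rose from 8.60, 10.2 and 11.2 CPM to 27.1, 28.5 and 30.7 CPM in KO cells (1.61 ± 0.11, adjusted p = 1.66e-06). It meets the end of RP11-47I22.2, another interaction gene, and its interaction was 1.59 with counts of the reverse strand alone.

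**Figure D2:**
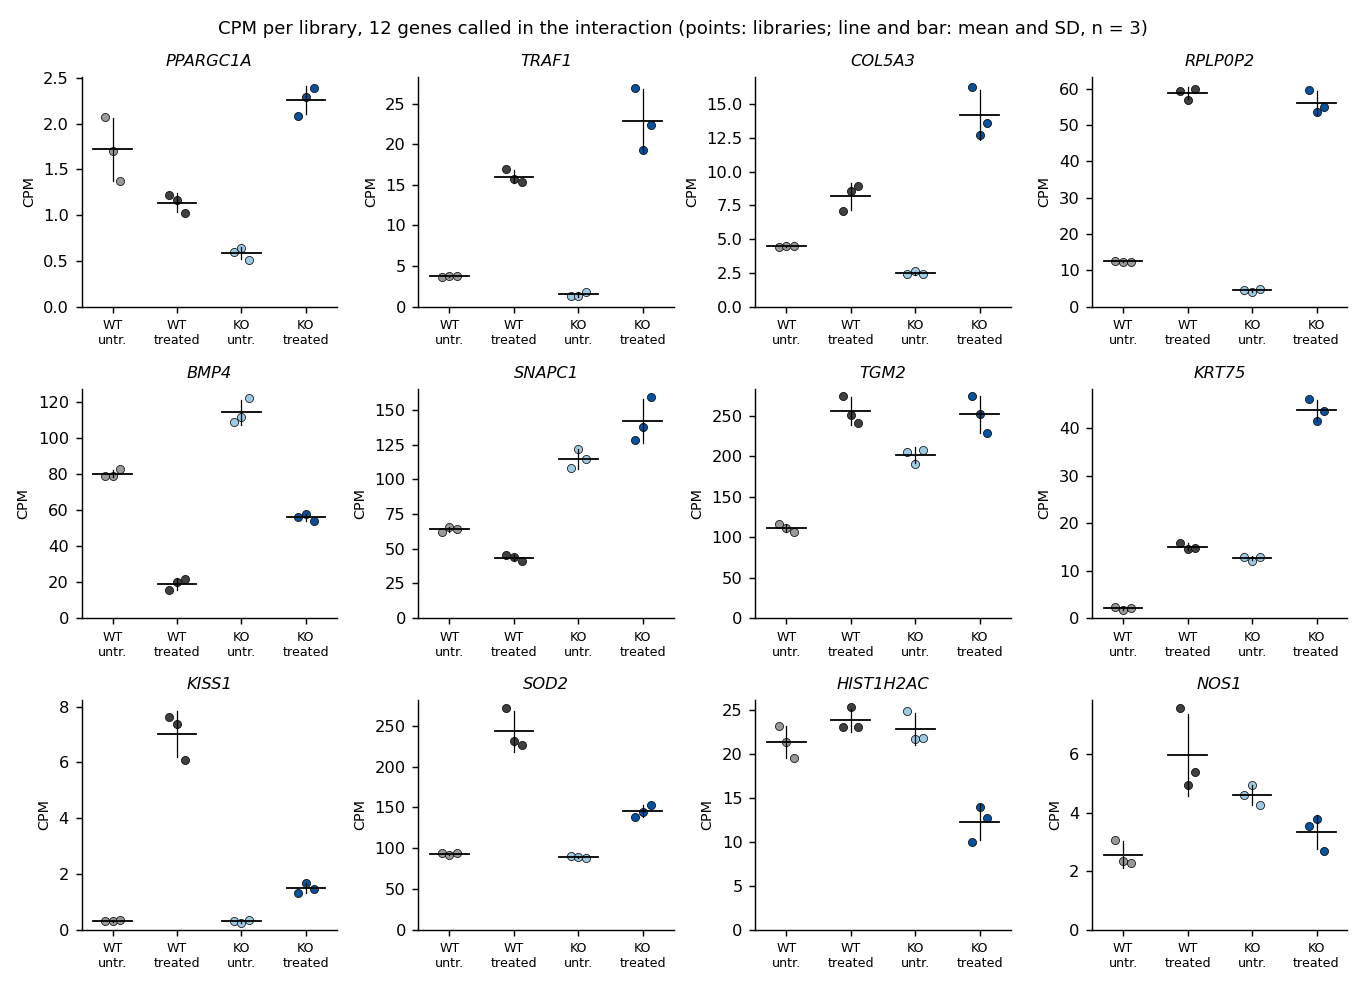
CPM of 12 interaction genes in each library (points) with the mean and SD of 3 replicates, on linear axes from 0. PPARGC1A, TRAF1 and COL5A3 lie below WT in untreated and above WT in treated KO cells, while KISS1, SOD2 and HIST1H2AC overlap or lie close when untreated and part after treatment.

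Among the genes that parted on treatment, KISS1, SOD2, MAP3K7CL and LAYN were close in untreated cells. KISS1 encodes kisspeptin, a secreted peptide that limits metastasis (chr1:204159469-204165614). It stood at 0.296, 0.301 and 0.352 CPM in untreated WT and at 0.308, 0.247 and 0.346 CPM in untreated KO cells. After treatment it stood at 7.62, 7.37 and 6.09 CPM in WT and at 1.32, 1.68 and 1.47 CPM in KO cells. Untreated genotypes overlapped and treated ones did not, and the interaction was -2.11 ± 0.29 (adjusted p = 0.00147). SOD2, the mitochondrial superoxide dismutase (chr6:160090089-160183561), went from 91.7 to 94.1 CPM up to 226 to 272 CPM in WT cells. In KO cells it went from 87.5 to 90.2 CPM up to 138 to 153 CPM (-0.67 ± 0.09, adjusted p = 0.00147). MAP3K7CL rose in WT cells, from 13.0 to 14.9 CPM up to 22.7 to 24.8 CPM, and was at 10.495 to 13.1 CPM in all 6 KO libraries (-0.84 ± 0.11, adjusted p = 0.00144). LAYN, a hyaluronan receptor, parted upwards: it was at 56.7 to 63.4 CPM in the 6 untreated libraries, at 81.4 to 84.1 CPM in treated WT and at 115 to 137 CPM in treated KO cells (0.66 ± 0.09, adjusted p = 0.00144).

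In other genes an existing difference grew. BMP4, a secreted ligand of the TGF-beta superfamily (chr14:54416454-54425479), fell from 79.0, 79.2 and 82.6 CPM to 15.4, 20.2 and 21.8 CPM in WT cells. In KO cells it fell from 109, 111 and 122 CPM to 56.3, 57.9 and 53.9 CPM. KO cells were above WT in both states, and the interaction was 1.04 ± 0.13 (adjusted p = 0.000727). SNAPC1, a subunit of the complex that activates small nuclear RNA genes (chr14:62229075-62263146), moved in opposite directions. It fell from 62.4, 65.9 and 64.1 CPM to 45.2, 44.1 and 40.9 CPM in WT cells and rose from 108, 122 and 114 CPM to 129, 138 and 159 CPM in KO cells (0.87 ± 0.10, adjusted p = 0.000614). PCDH1, a protocadherin, was at 1.07 to 1.64 CPM in untreated cells and at 4.64 to 5.82 CPM in treated KO against 1.11 to 1.48 CPM in treated WT cells (1.54 ± 0.20, adjusted p = 0.00144). ALPP, the placental alkaline phosphatase, fell in WT cells to 0.328, 0.877 and 0.734 CPM and was at 3.52 to 3.98 CPM in all 6 KO libraries (1.94 ± 0.26, adjusted p = 0.00144). ALPP has near-identical family members, so its counts are uncertain. MYO7B, an unconventional myosin of microvilli, was below WT in both states, and the gap grew from -0.30 to -1.07 (-0.77 ± 0.10, adjusted p = 0.00084).

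In 2 of the genes named so far, PPARGC1A and SNAPC1, the called responses had opposite signs, and NOS1 and MEOX1 did likewise. NOS1, neuronal nitric oxide synthase, stood at 2.28 to 3.08 CPM untreated and 4.94 to 7.56 CPM treated in WT cells, and at 4.24 to 4.95 CPM untreated and 2.69 to 3.79 CPM treated in KO cells (-1.69 ± 0.23, adjusted p = 0.00194). MEOX1, a homeobox transcription factor, stood at 1.78 to 2.31 CPM untreated and 1.44 to 1.67 CPM treated in WT, and at 2.24 to 2.29 CPM untreated and 3.74 to 4.07 CPM treated in KO cells (1.12 ± 0.17, adjusted p = 0.0027). In all, 21 genes had opposite responses. CCDC147, a coiled-coil gene, rose in both genotypes, by 3.93 in WT and 2.63 in KO cells on the log2 scale. It went from 3.16 to 4.44 CPM up to 55.7 to 58.8 CPM in WT and from 10.4 to 12.4 CPM up to 63.7 to 80.6 CPM in KO cells (-1.30 ± 0.15, adjusted p = 0.000482).

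The histone genes HIST1H2AC and HIST1H2BK had negative interactions. HIST1H2AC overlapped between genotypes untreated, at 19.6 to 24.96 CPM. After treatment it stood at 23.1 to 25.4 CPM in WT and at 9.99 to 14.0 CPM in KO cells (-1.05 ± 0.14, adjusted p = 0.00159). HIST1H2BK was above WT in untreated KO cells, at 136 to 150 against 95.2 to 109 CPM, and below WT in treated KO cells, at 65.9 to 79.2 against 86.0 to 91.6 CPM (-0.74 ± 0.10, adjusted p = 0.00144). Histone genes have near-identical copies that can share reads, so these counts are uncertain.

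Of 38 interferon-stimulated genes tested, 5 were called: IFIT1, IFIT2, IFIT3 and ISG15 with a negative and GBP1 with a positive interaction. Over all genes tested 0.762% were called with a positive and 0.451% with a negative interaction. The median of the list was -0.03, against -0.02 over all genes tested. IFIT proteins bind foreign RNA, ISG15 is a ubiquitin-like protein and GBP1 is a large GTPase, all made in the antiviral response. The interferon-stimulated response element is the DNA motif through which interferon factors act. The RefSeq promoters of 4 of these genes (GRCh38.p14, 250 bases before to 50 after the start site) are shown because all hold its core in capitals: GAAA, any 2 bases and GAAA again, or TTTC, any 2 bases and TTTC where the core is on the other strand. IFIT1 is at chr10:89392373-89392672 (plus strand), IFIT3 at chr10:89327747-89328046 (plus), ISG15 at chr1:1013247-1013546 (plus) and GBP1 at chr1:89065159-89065458 (minus).
IFIT1: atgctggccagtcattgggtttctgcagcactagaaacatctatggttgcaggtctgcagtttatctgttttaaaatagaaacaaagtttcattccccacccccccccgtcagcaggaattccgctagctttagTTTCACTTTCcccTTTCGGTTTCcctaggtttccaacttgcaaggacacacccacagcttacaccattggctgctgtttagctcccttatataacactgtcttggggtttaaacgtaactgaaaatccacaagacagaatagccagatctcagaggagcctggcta
IFIT3: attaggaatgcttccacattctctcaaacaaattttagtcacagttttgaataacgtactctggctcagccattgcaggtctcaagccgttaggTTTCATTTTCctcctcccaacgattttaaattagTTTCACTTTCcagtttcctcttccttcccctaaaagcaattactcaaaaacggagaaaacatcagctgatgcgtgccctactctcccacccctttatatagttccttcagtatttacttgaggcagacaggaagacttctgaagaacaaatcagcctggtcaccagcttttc
ISG15: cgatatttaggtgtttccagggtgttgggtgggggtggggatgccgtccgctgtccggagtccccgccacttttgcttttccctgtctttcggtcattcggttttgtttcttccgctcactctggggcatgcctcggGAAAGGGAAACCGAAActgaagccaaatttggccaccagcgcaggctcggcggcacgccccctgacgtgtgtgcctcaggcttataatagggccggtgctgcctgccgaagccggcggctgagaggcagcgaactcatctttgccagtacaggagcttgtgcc
GBP1: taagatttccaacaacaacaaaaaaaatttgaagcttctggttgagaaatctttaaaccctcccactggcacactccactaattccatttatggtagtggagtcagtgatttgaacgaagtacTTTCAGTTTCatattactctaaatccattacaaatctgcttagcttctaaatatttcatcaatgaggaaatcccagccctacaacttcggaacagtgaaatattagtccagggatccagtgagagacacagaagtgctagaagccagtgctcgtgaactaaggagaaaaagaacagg
The core occurs 2 times in the IFIT1, IFIT3 and ISG15 promoters, overlapping in ISG15, and once in that of GBP1. It is found in 3.65% of 27305 RefSeq promoters of this length and in 18 of the 29 members of the interferon list that matched a promoter, among them IFI6 and IFIT5, which were not called. IFIT2 did not match. A match is a description of the letters and does not show binding, and GBP1 carries the core yet moved the other way.

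The IFIT genes lie side by side on hg19 chromosome 10, from IFIT2 (chr10:91061712-91069033) through IFIT3 (chr10:91087651-91100728) to IFIT1 (chr10:91152303-91163745). IFIT2 stood at 1.28, 1.504 and 1.35 CPM in untreated WT and at 1.33, 1.33 and 1.37 CPM in untreated KO cells. After treatment it stood at 15.5, 11.8 and 10.3 CPM in WT and at 5.21, 5.604 and 5.06 CPM in KO cells. The genotypes overlapped untreated and were apart when treated, and the interaction was -1.20 ± 0.21 (adjusted p = 0.00899).

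IFIT3 behaved alike, from 2.49 to 2.85 CPM up to 16.5 to 23.7 CPM in WT cells and from 2.26 to 2.50 CPM up to 7.01 to 7.37 CPM in KO cells (-1.25 ± 0.18, adjusted p = 0.0027). ISG15 went from 6.12, 6.47 and 6.81 CPM to 19.6, 21.8 and 19.5 CPM in WT cells and from 7.27, 6.21 and 8.45 CPM to 14.3, 11.7 and 11.5 CPM in KO cells. Its untreated genotypes overlapped, and its interaction was -0.88 ± 0.15 (adjusted p = 0.00781, and 0.0974 when fitted over all 24 libraries). IFIT1 already differed untreated, at 13.1 to 14.3 CPM in WT and 8.78 to 9.31 CPM in KO cells. It rose in WT cells to 16.1 to 18.7 CPM and fell in KO cells to 7.54 to 7.92 CPM (-0.56 ± 0.10, adjusted p = 0.0118). GBP1 was a closing gene: untreated WT cells had 0.731 to 0.819 CPM and untreated KO cells 0.292 to 0.346 CPM, and treated cells overlapped at 0.832 to 1.13 CPM (1.10 ± 0.24, adjusted p = 0.0341). The GBP1 call was lost without any one of 10 of the 12 libraries, with adjusted p-values up to 0.115.

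**Figure D3:**
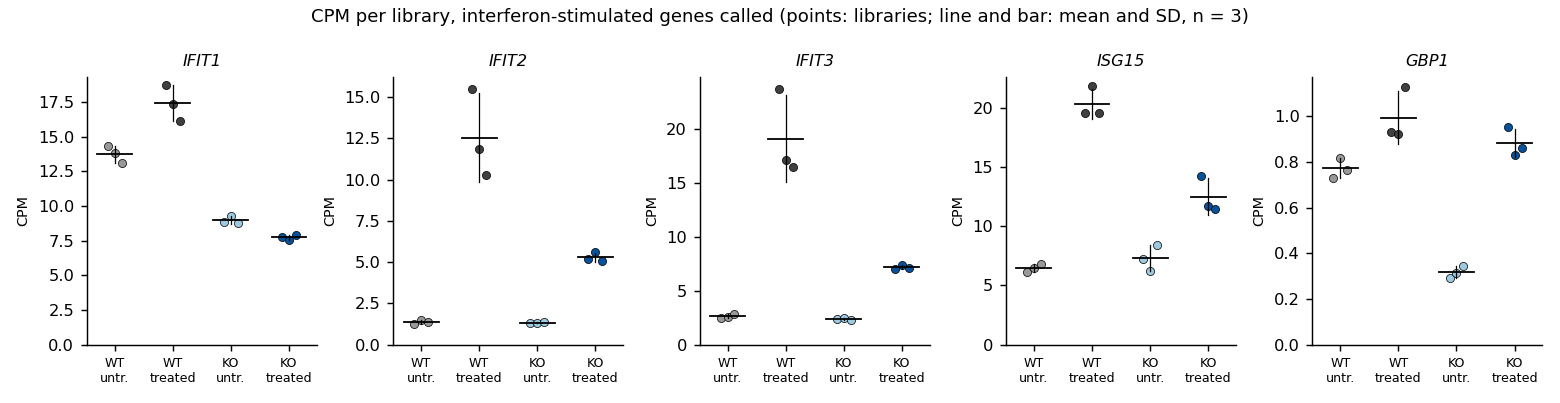
CPM of the 5 interferon-stimulated genes with a called interaction in each library (points) with the mean and SD of 3 replicates, on linear axes from 0. IFIT2, IFIT3 and ISG15 are close between genotypes untreated and lower in treated KO than in treated WT cells, with IFIT1 lower in KO cells in both states.

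The G2/M phase list, 54 genes that mark cells in late cell cycle, lay below 0 almost throughout, by small amounts. Its median interaction was -0.21, and 52 of the 54 members lay below 0, against 53.6% of all genes tested. Only 3 members were called, all negative: AURKA (mitotic kinase Aurora A), ANLN (the cytokinesis scaffold anillin) and CDCA3 (a mitotic entry factor). At an unadjusted p below 0.05 there were 29, all negative, and DESeq2 called 5. Over all 21265 genes there were 1398 positive and 1107 negative at that threshold, and DESeq2 called 290 and 154. The median stayed between -0.23 and -0.19 with each library left out, and members of one list are not independent of each other. The list fell on treatment in both genotypes, with 52 members called lower in each (23.0% of all tested genes were called lower in KO and 19.4% in WT cells) and medians of -0.92 in KO and -0.66 in WT cells. In untreated cells 3 members were called higher and 16 lower in KO than in WT (median difference -0.03). In treated cells 1 was higher and 36 were lower (median -0.27). Over all genes tested, 13.8% were higher and 14.6% lower in untreated cells, and 14.7% were higher and 15.5% lower in treated cells.

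AURKA stood at 259, 261 and 252 CPM in untreated WT and at 158, 151 and 154 CPM in treated WT cells. In KO cells it stood at 217, 230 and 215 CPM untreated and at 98.7, 107 and 103 CPM treated. The genotypes did not overlap in either state, and the interaction was -0.36 ± 0.07 (adjusted p = 0.0132). The call was lost without untreated WT replicate 1 or 3, with adjusted p-values up to 0.0549. ANLN was at 624 to 665 CPM against 538 to 577 CPM untreated and at 440 to 447 CPM against 261 to 319 CPM treated, WT against KO (-0.38 ± 0.09, adjusted p = 0.0398). CDCA3 was at 150 to 156 CPM against 158 to 171 CPM untreated and at 85.3 to 90.2 CPM against 77.2 to 77.6 CPM treated (-0.32 ± 0.07, adjusted p = 0.0341). The ANLN and CDCA3 calls were lost without any one of 9 and 10 of the 12 libraries, with adjusted p-values up to 0.144 and 0.12. Both calls were also lost with the replicate number as a block, and that of ANLN when fitted over all 24 libraries.

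The S phase list (43 genes) and the double-strand break repair list (43 genes) had smaller medians of the same sign, -0.13 and -0.14. Below 0 were 34 of 43 and 38 of 43 members. No member was called by edgeR or DESeq2. At an unadjusted p below 0.05 there were 7 lower S phase genes, and 1 higher and 3 lower repair genes, of 43 each. The KO minus WT calls of S phase genes went from 9 higher and 0 lower untreated to 2 higher and 5 lower treated, and those of repair genes from 9 higher and 4 lower to 8 higher and 9 lower. The shares over all genes are those given for the G2/M list. The integrated stress response list (20 genes), which cells use when amino acids or protein folding fail, leaned the other way. Its median was 0.17 with 18 of 20 members above 0, and ALDH1L2, a mitochondrial folate enzyme, was called (0.59 ± 0.13, adjusted p = 0.0343). At an unadjusted p below 0.05, 5 members of this list were higher and 1 lower, and DESeq2 called 1 higher and 1 lower. The ALDH1L2 call was lost when fitted over all 24 libraries and with the replicate number as a block. ALDH1L2 was at 17.2 to 19.6 CPM in untreated WT and 9.15 to 11.04 CPM in untreated KO cells. After treatment it was at 8.55 to 9.85 CPM in WT and 7.01 to 8.20 CPM in KO cells.

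The remaining lists held 1 to 4 called genes each. Over all tested genes 0.762% were called with a positive and 0.451% with a negative interaction. Of 29 chemokine and cytokine genes, 3 were called with a positive interaction (CX3CL1, CCL26 and CSF1) and 1 with a negative one (TNFSF15). The list median was 0.15. CSF1, the growth factor of macrophages, overlapped untreated at 10.8 to 13.0 CPM and stood at 12.3 to 13.4 CPM in treated WT and 17.5 to 18.7 CPM in treated KO cells (0.50 ± 0.11, adjusted p = 0.0383). CCL26, an eosinophil chemokine, was at 5.86 to 6.14 CPM in untreated WT and 2.37 to 3.097 CPM in untreated KO cells, and treated genotypes overlapped (0.86 ± 0.15, adjusted p = 0.0098). TNFSF15, a tumour necrosis factor ligand, was higher in KO cells in both states, with a difference of 1.64 untreated and 0.69 treated (-0.96 ± 0.20, adjusted p = 0.0284).

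Of 13 osteoblast genes, RUNX2 and TNFRSF11B were called with a positive interaction (list median 0.14). TNFRSF11B, the decoy receptor osteoprotegerin, was at 4.12 to 5.59 CPM in untreated WT and at 3.88 to 4.08 CPM in untreated KO cells, which lay close without overlap. It stood at 3.46 to 5.30 CPM in treated WT and at 7.56 to 8.83 CPM in treated KO cells (1.21 ± 0.20, adjusted p = 0.0055). Of 33 TGF-beta and BMP genes, BMP4 was called with a positive interaction. TGFBI, a secreted matrix protein, was called with a negative one (-0.49 ± 0.09, adjusted p = 0.011), and the list median was -0.03. Of 27 collagen genes, COL5A3 and COL4A4 (0.56 ± 0.12, adjusted p = 0.0249) had a positive called interaction. COL8A1 had a negative one (-0.53 ± 0.11, adjusted p = 0.0321), and the list median was 0.02.

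Of 22 cholesterol genes, HMGCS1, which makes the precursor of mevalonate, was called with a negative interaction. It was at 319 to 347 CPM untreated with overlap, at 525 to 602 CPM in treated WT and at 356 to 417 CPM in treated KO cells (-0.47 ± 0.09, adjusted p = 0.0188), and the list median was -0.06. Its call was lost without untreated KO replicate 1 or 2 or untreated WT replicate 1 or 2, with adjusted p-values up to 0.0712. Of 28 neuronal and synaptic genes, SYP and CHGB, a secretory granule protein (0.89 ± 0.16, adjusted p = 0.00877), had a positive called interaction. The list median was 0.07. The calls of CSF1, TNFSF15, COL4A4, COL8A1 and ALDH1L2 were lost without any single untreated WT library and without others, with adjusted p-values up to 0.138.

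In 4 further lists no member was called by edgeR. Their counts below are to be read against the 1398 higher and 1107 lower of 21265 genes at an unadjusted p below 0.05, and the 290 and 154 by DESeq2. Of 22 p53 targets, 2 were higher and 1 lower at an unadjusted p below 0.05, and DESeq2 called 0. Of 12 MHC class II genes it was 0 by either. Of 17 AP-1 and immediate early genes, 5 were higher and 1 lower unadjusted, and DESeq2 called 2 higher. Of 25 contractile genes, 7 were higher and 1 lower unadjusted, and DESeq2 called 2 higher. Their medians were -0.01, 0.11, 0.07 and 0.09. The AP-1 median moved to 0.48 without untreated KO replicate 1.

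The 12 U2OS libraries gave no part of the AID-DIvA values and were fitted in the same way, with 488 of 22647 genes called in the interaction (2.15%). Of the 258 AID-DIvA interaction genes, 257 were tested there. The sign was the same for 201 (78.2%), against 55.03% of the 15155 tested genes at 1 CPM or more. In U2OS 70 were called with the same sign and 4 with the opposite sign. U2OS untreated WT replicate 1 stood far from its group. Without it, 115 genes were called with the same sign and 18 with the opposite sign.

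Of the genes whose difference shrank on treatment, 126 of 136 had the same sign in U2OS (92.6%), 56 were called with that sign and 0 with the other. Of the genes whose difference grew, 75 of 121 had the same sign (62.0%), 14 were called with it and 4 with the other. The median absolute interaction was 0.67 and 0.71 in AID-DIvA for the shrinking and growing genes, and 0.45 and 0.27 in U2OS. Genes share libraries, and the gap between the shares was not tested. Without U2OS untreated WT replicate 1 the same-sign shares were 90.5% and 62.8%, with 83 called alike and 1 opposite among the shrinking genes, and 32 alike and 17 opposite among the growing ones. Calls in U2OS rose for all genes at 1 CPM or more as well, from 3.74% to 14.7% of those with a shrinking and from 2.10% to 10.7% of those with a growing difference. All tested genes at 1 CPM or more, split in the same way, gave 61.7% and 49.2%, or 54.9% and 47.0% without that library. Among genes that were not interaction genes but whose larger difference was itself called, the shares were 68.5% and 46.0%, or 60.8% and 44.9% without it. With all 12 U2OS libraries, the U2OS difference was smaller after treatment for 88.2% of the shrinking and 57.0% of the growing genes. For all tested genes at 1 CPM or more, split in the same way, this was 60.4% and 55.3%.

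**Figure D4:**
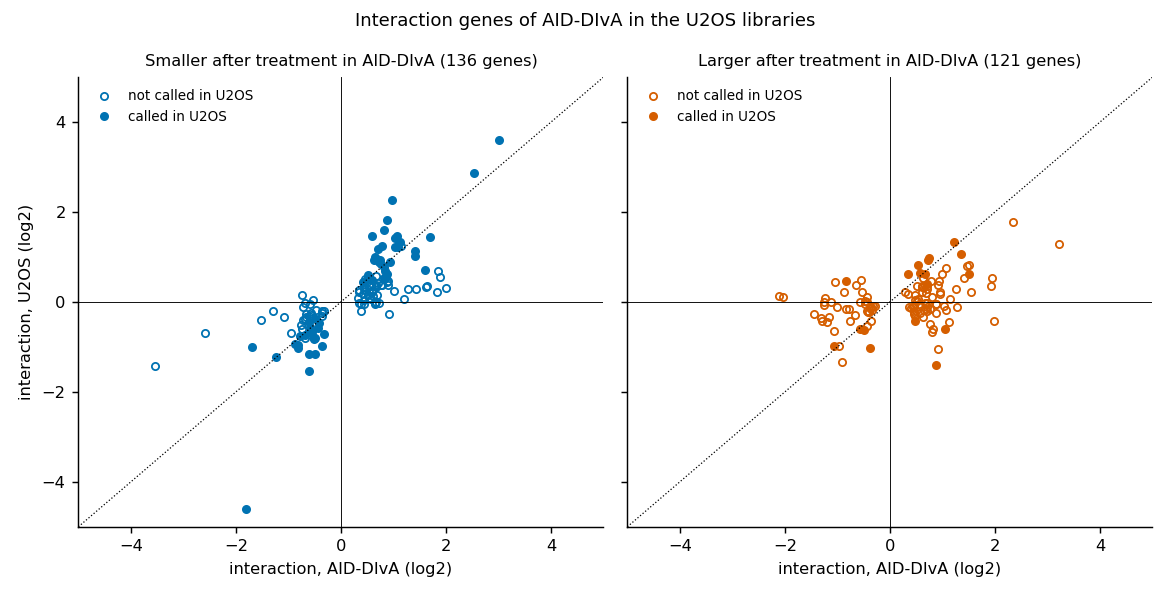
Interaction (log2) of the AID-DIvA interaction genes in AID-DIvA (x axis) and in U2OS cells (y axis), for genes whose KO minus WT difference was smaller (left, 136 genes) or larger (right, 121 genes) after treatment in AID-DIvA; filled points were called in U2OS and the dotted line marks equal values. On the left 126 genes have the same sign in both lines, and on the right 75.

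Among the named shrinking genes, PPARGC1A had an interaction of 2.88 ± 0.27 in U2OS, MYCL 1.21 ± 0.10, TGM2 -0.94 ± 0.10, LCP1 0.89 ± 0.14, SYP 0.84 ± 0.12, CX3CL1 1.46 ± 0.14 and RUNX2 0.56 ± 0.13, all called there. Other named shrinking genes were not called there, among them TRAF1 (0.21 ± 0.18), COL5A3 (0.35 ± 0.12), KRT75 (-0.34 ± 0.14) and CCDC147 (-0.20 ± 0.11). The same held for CCL26, TNFSF15 and CHGB. Growing genes with the same call in U2OS included LAYN (0.63 ± 0.09) and TNFRSF11B (1.34 ± 0.17). KISS1, SOD2, BMP4 and SNAPC1 had U2OS interactions of 0.14 ± 0.41, -0.28 ± 0.07, -0.59 ± 0.11 and -0.03 ± 0.09, of which that of BMP4 was called, with the opposite sign. The difference between the 2 interactions, tested over all 24 libraries, was called for 40 of the 257 genes. Over all genes it was called for 143 of 23087 (0.619%). This test was not repeated without U2OS untreated WT replicate 1. The 257 genes were chosen by their AID-DIvA interaction, which is part of the difference tested. A higher share among them than over all genes follows in part from that choice.

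In U2OS the median interaction of the 54 G2/M genes was 0.07, 21 lay below 0 and 0 were called in edgeR, with 2 higher at an unadjusted p below 0.05. The gap between the lines was not tested for lists. The S phase and repair lists had U2OS medians of 0.09 and 0.03. The integrated stress response list had a U2OS median of 0.27, of the same sign as in AID-DIvA, with 3 of 20 members below 0. Without U2OS untreated WT replicate 1 these 4 medians were 0.05, 0.10, 0.07 and 0.13. The IFIT genes were not called in the U2OS interaction, with values of 0.48 ± 0.12, -0.43 ± 0.43 and 0.01 ± 0.35 for IFIT1, IFIT2 and IFIT3.

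**Figure D5:**
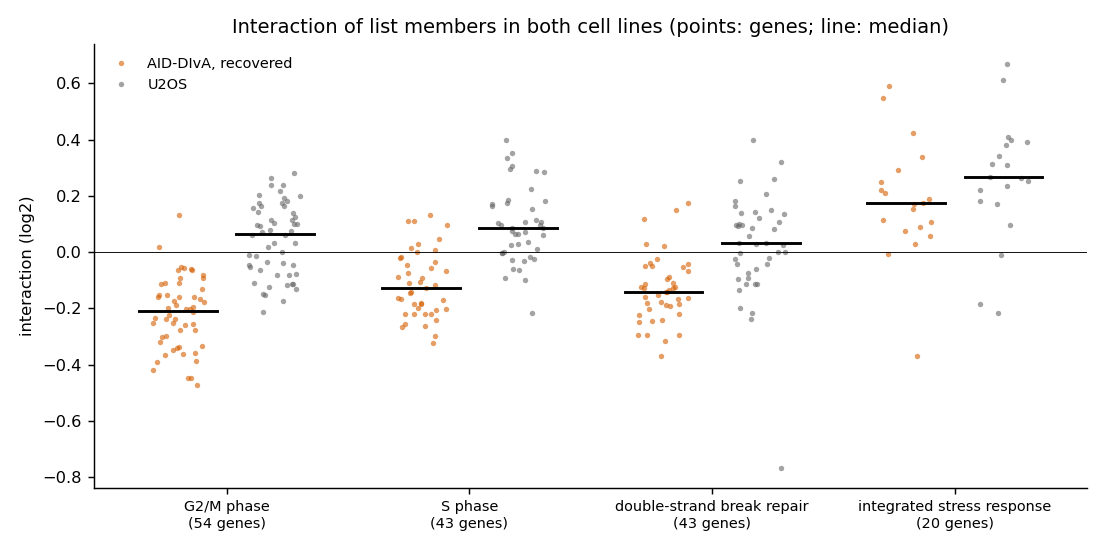
Interaction (log2) of the members of 4 gene lists in AID-DIvA after recovery (orange) and in U2OS cells (grey); points are genes and black lines list medians. The G2/M phase median is -0.21 in AID-DIvA and 0.07 in U2OS, while that of the integrated stress response list is 0.17 and 0.27.

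Interaction genes were spread over all 22 autosomes and X, with between 0.62% and 1.94% of the tested genes of a chromosome called. Among them 14 neighbouring pairs lay within 100000 bases of each other, and 13 of these pairs had the same sign. They included MYCL and MFSD2A, the IFIT genes, CCL26 and CCL24, CAV1 and CAV2 (caveolins, which form membrane pits), and HIST1H2BJ and HIST1H2BK. Of the 14 pairs 2 overlap on the genome. Overlapping genes and near-identical copies, such as histone genes, can share reads. Neither the number of pairs nor their shared sign was counted over all tested genes, so no result is drawn from them. MFSD2A, CCL24, CAV1, CAV2 and HIST1H2BJ are named here after their values were seen.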

How the data were processed

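Stranded total RNA libraries were read in pairs. The authors aligned reads with STAR to hg19/GRCh37 and counted fragments per gene with featureCounts (versions not given in the sources used here), and the deposited values used were raw counts per gene from either strand, one file per library. The annotation is named as a GENCODE release lifted to this build, but the gene identifiers have the form of an earlier one. The deposited normalised columns were not used. Groups followed the sample titles, since the treatment field contradicts them for the AID-DIvA libraries.

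Counts of the 12 AID-DIvA libraries were fitted in R 4.3.3 with edgeR 4.0.16 (filterByExpr, TMM normalisation, quasi-likelihood F-tests, 4 group means without a block), and p-values were adjusted by Benjamini-Hochberg over all genes tested at a threshold of 0.05. The U2OS libraries were fitted alike. Values shown per library are CPM, and fold changes are log2 with their SE. Total counts were 37878751 to 76906266 per library. Alternatives were DESeq2 1.42.0, its size factors, other filters and thresholds, reverse-strand counts, the replicate number as a block, all 24 libraries, and each library left out. The test of the difference between the lines, the split without a U2OS library, and the list calls by DESeq2 and unadjusted p were added after seeing the data.

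Genes were named by rule: ID3, the 12 called genes with the smallest p in each direction at a mean of 1 CPM or more, the 4 with the smallest p in each class of the split and among genes with opposite responses, called members of the gene lists, and the ID, E protein and HDAC genes. Some items that the rule names are not reported here. The members, lists and comparisons were chosen with earlier results of these data known. Promoter sequences came from RefSeq (GRCh38.p14). Only 184 of the 258 interaction genes matched a promoter, so no share of motifs among them is given.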

Additional observations from a re-analysis of the deposited data

Results flagged for a closer look

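The treatment effect differed between the genotypes for 258 genes by the interaction test. In 5 of the named genes the KO and WT responses were called in opposite directions, with interactions of 2.53 for PPARGC1A, 0.87 for SNAPC1, -1.69 for NOS1, 1.12 for MEOX1 and -0.56 for IFIT1 on the log2 scale.

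For 14 of the named genes the interaction itself differed between the lines, by a test over all 24 libraries (edgeR, adjusted p below 0.05) added after seeing the data. The test included U2OS untreated WT replicate 1, which stood far from its group, and was not repeated without it. All 14 genes had a called AID-DIvA interaction, which is part of the difference tested. Their number and signs therefore follow in part from how they were chosen. AID-DIvA minus U2OS was positive for BMP4 (1.64), TRAF1 (1.62), MEOX1 (1.57), PCDH1 (1.32), COL5A3 (1.31), SNAPC1 (0.90), RP11-47I22.3 (0.89) and CSF1 (0.71). It was negative for KISS1 (-2.26), HIST1H2AC (-1.503), CCDC147 (-1.10), IFIT1 (-1.04), HIST1H2BK (-0.91) and COL8A1 (-0.76). By the methods, treated AID-DIvA cells had recovered and U2OS cells had not, so line and stage cannot be told apart in these differences. The histone genes carry the counting limit named above.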

How the results depend on the processing

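The sign of the interaction was kept by all 47 called named genes under each of 19 alternatives, and 35 kept their call under all of them. The count of 258 called genes (162 higher, 96 lower) was less stable. It was 444 with DESeq2 (290 and 154), 613 with no filter on low counts (422 and 191), 91 at an adjusted p below 0.01 (54 and 37) and 66 at an absolute log2 above 1 (43 and 23). DESeq2 called 254 of the 258. With each library left out the count ran from 122 to 297, with 76 to 192 higher and 46 to 128 lower. Absolute log2 above 1 left 1734 genes in the KO response, 1642 in the WT response, 1019 in the untreated and 1078 in the treated difference, and took the share of interaction genes that rose or fell in both genotypes to 27.3%. An adjusted p below 0.01 left 3944 and 4212 genes in the untreated and treated differences. The AP-1 median ran from 0.030 to 0.48 with a library left out. In U2OS, genes called with the same sign ran from 55 to 115 and with the opposite sign from 1 to 18. The cause of these shifts was not tested, beyond the fewer genes or libraries that some alternatives hold by construction.

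Replicate numbers are shared between groups. Deviations of same-numbered libraries from their group means were weakly correlated over all tested genes (18 correlations of -0.15 to 0.07). With 3 libraries in a group and many genes at low counts, such values do not settle whether these libraries shared a batch, which was not tested. With the replicate number as a block, 157 genes were called (96 higher, 61 lower), 154 of them among the 258. A single library decided many calls near the threshold, and 3 replicates limit the precision.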
